A study of Mus musculus with 8 samples.

Results

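Purine metabolism and adenosine signalling were examined through 41 genes in the heart of the male 129/Sv mouse, an inbred strain. The mice had received a diet with 0.15% adenine for 13 weeks, which the labels class as chronic kidney disease (4 libraries, Adenine 1 to Adenine 4), or a standard diet for 13 weeks, classed as healthy (4 libraries, titled Sham and called Control 1 to Control 4 below). The members were chosen by name, for their place in purine salvage, breakdown, synthesis, interconversion, transport or adenosine reception. All 41 were found among the 27304 genes of the count table, and all 41 passed the filter on low counts. The design text speaks of no replicates, and no label ties each library to its own animal, so p-values measure only the spread between these libraries, which may be technical.

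Purine nucleotides, among them ATP and GTP, are built step by step on phosphoribosyl pyrophosphate (PRPP) to inosine monophosphate (IMP), or recovered from free bases and nucleosides by salvage enzymes. The heart turns over large amounts of ATP, relies much on salvage, and releases adenosine, which acts on cell-surface receptors and slows conduction or widens vessels. Dietary adenine enters at a known place: APRT joins it to PRPP to give AMP, and xanthine dehydrogenase oxidises what remains to a poorly soluble dihydroxyadenine that injures the kidney. The comparison of the diets therefore shows whether cardiac transcripts of this pathway differ in mice fed an excess of one of its substrates for long enough to develop kidney disease.

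None of the 41 members passed an adjusted p under 0.05 in edgeR's quasi-likelihood test over the 20093 genes tested, where 0.0398% of all genes tested passed. The lowest adjusted p was 0.216, for Pnp. None of the 41 passed under any of 16 other settings either, including DESeq2, limma-voom and each library left out in turn, and the lowest adjusted p among those was 0.0779, for Pnp without Adenine 3. At an unadjusted p under 0.05, 4 members were higher (Pnp, Nt5e, Xdh and Ampd1) and 2 lower (Slc29a1 and Impdh1) in adenine libraries, 14.6% of the members. Among all genes tested, 17.5% had such a p (10.9% higher and 6.63% lower), so the members' share was not above the background. Adenine and control libraries were fully separate for 2 members, Pnp (higher) and Impdh1 (lower), 4.88% of the members against 7.29% of all genes tested, of which 3.45% were higher and 3.84% lower.

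The median log2 fold change over the 41 members (adenine minus control) was -0.12, with 14 positive and 27 negative values, beside 0.05 over all genes tested. Fold changes depended on abundance. Among the 8428 genes whose mean reached 10 CPM (reads per gene scaled to a common library total with TMM factors) the median was -0.15 and 77.9% were negative, and among the 32 members above that level the median was -0.16 and 71.9% were negative. The split of directions also depended on scaling, with 22 positive and 19 negative members with upper-quartile factors, which moved the median of all genes to 0.20, and 20 positive and 21 negative with a filter of 1 CPM in 4 libraries. Direction counts of the groups below carry that uncertainty.

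Total counts were lowest in Adenine 2, with 15626620, and highest in Control 2, with 33886385. All 6 cardiomyocyte markers checked were detected, with a summed level of 26356 to 47349 CPM in adenine and 40433 to 51586 CPM in control libraries. Their log2 fold changes were negative for 6 of 6, with a median of -0.18, beside -0.15 for all genes of at least 10 CPM. Adenine 3 stood apart: its 8 macrophage and monocyte markers summed to 2545.5 CPM, while the sum was 266 to 413 CPM for Adenine 1, 2 and 4 and 332 to 569 CPM for the controls, and its cardiomyocyte sum was the lowest of all. It also held the highest value of all 8 libraries for 8 of the 41 members. That share is close to the 20.0% of tested genes with at least 10 CPM, and the value was 13.8% over all genes tested. In such bulk samples fewer cells of a type and less RNA per cell cannot be told apart. The 5 erythroid markers found summed to 1660 to 3085 CPM in adenine and 7008 to 26049 CPM in control libraries, with 5 of 5 log2 fold changes negative. Fibroblast sums were 635 to 2115 CPM in adenine and 1148 to 1746 CPM in control libraries, with 5 of 7 log2 fold changes negative, and mural sums 671 to 924 CPM and 824 to 1193 CPM, with 6 of 6 negative. Log2 fold changes were positive for 7 of the 8 macrophage and monocyte markers and for 5 of 5 neutrophil markers. They were positive for 5 of 6 lymphocyte markers (0 negative, the other without a log2 fold change). Lymphocyte sums were 6.53 to 16.6 CPM in adenine and 5.79 to 9.33 CPM in control libraries, and neutrophil sums 6.99 to 12.7 CPM and 3.32 to 6.18 CPM. The lymphocyte sum was highest in Adenine 2 and Control 4 and lowest in Adenine 3 and Control 2. The summed receptor genes of smell and pheromone sensing, given below with Ampd1, had the same highest and lowest libraries. The 4 atrial markers summed to 105 to 2183 CPM in adenine libraries, and to 4855.5 CPM in Control 2 and 866 to 1088 CPM in the other controls. Of their log2 fold changes, 3 were negative and 1 positive. None of these markers passed the test, none was at 0, and their part in the results was not tested. Values without Adenine 3 are given where the sign turns or the value moves by over 1.5 times.

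**Figure D1:**
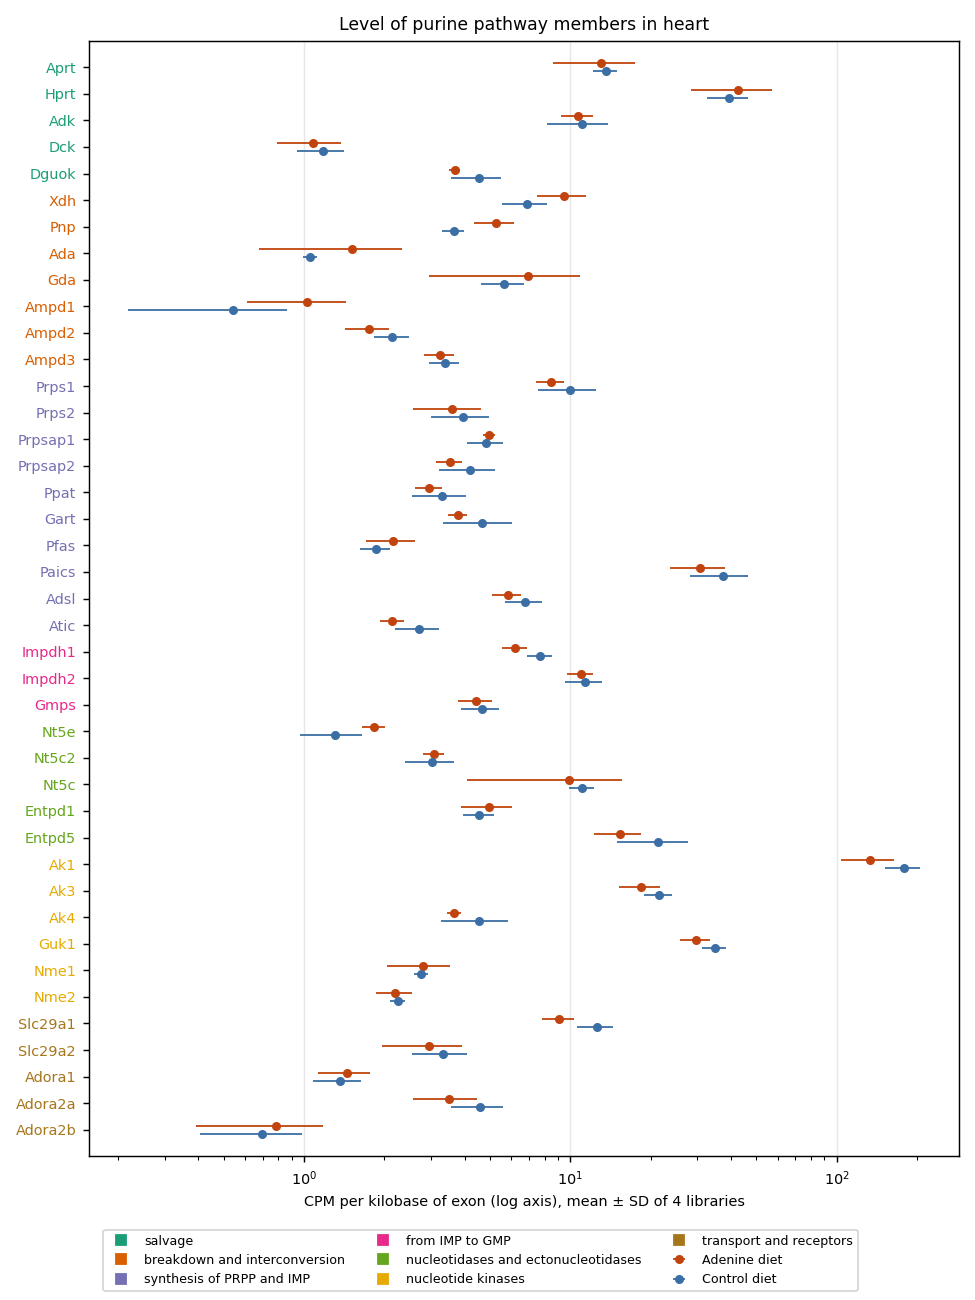
Level of each of the 41 members per kilobase of annotated exon, on a log axis (points, mean of 4 libraries; bars, SD; orange, adenine diet; blue, control diet; symbols coloured by step). Ak1 lies highest, at 134 CPM per kilobase in adenine and 179 in control hearts, and Adora2b and Ampd1 lie lowest.

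Per kilobase of exon, the members differed widely in level. Ak1, the cytosolic adenylate kinase that interconverts ATP, ADP and AMP, was the highest, with 134 ± 30.0 CPM per kilobase in adenine and 179 ± 26.5 in control hearts (SD, n = 4 each). The next were Hprt, the salvage enzyme for hypoxanthine and guanine (42.8 ± 14.5 and 39.5 ± 6.88 in adenine and control hearts), Paics (30.8 ± 7.14 and 37.3 ± 9.05) and Guk1, guanylate kinase (29.7 ± 3.84 and 34.8 ± 3.63), 3 genes whose SD ranges overlap in the adenine libraries. The receptor gene Adora2b (0.781 ± 0.390 and 0.695 ± 0.289) and Ampd1 (1.02 ± 0.412 and 0.540 ± 0.322) were the lowest. Levels of Nme2 and Nme1, nucleoside diphosphate kinases, are uncertain, because 48.9% and 12.5% of their exon bases also belong to Gm20390, a gene on the same strand that was not analysed here.

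The 2 members with the lowest p, Pnp and Slc29a1, are shown by the sequence before a transcription start, as RefSeq gives it on GRCm38.p6, without bases that GENCODE places in exons. These windows, chr14:50944053-50944301 on the plus strand and chr17:45595247-45595481 on the minus strand, are printed 5′ to 3′, and capitals mark an E-box, the letters CACGTG that basic helix-loop-helix factors such as MYC, USF and the clock proteins can bind.
Pnp: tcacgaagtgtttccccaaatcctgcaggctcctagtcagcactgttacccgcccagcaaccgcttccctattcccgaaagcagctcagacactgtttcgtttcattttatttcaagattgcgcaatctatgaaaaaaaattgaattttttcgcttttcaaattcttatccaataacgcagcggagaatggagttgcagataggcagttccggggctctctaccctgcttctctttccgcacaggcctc
Slc29a1: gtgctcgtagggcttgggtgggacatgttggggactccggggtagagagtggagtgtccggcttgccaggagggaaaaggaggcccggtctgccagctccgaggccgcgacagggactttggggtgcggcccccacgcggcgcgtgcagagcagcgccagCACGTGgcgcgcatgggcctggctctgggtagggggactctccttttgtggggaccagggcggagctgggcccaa
The Pnp window lies inside the annotated span of that gene, is 46.6% G or C and holds no E-box. The Slc29a1 window belongs to 1 of several annotated starts of that gene, is 69.4% G or C and holds 1. RefSeq windows of 250 bases before a start were available for 37 members, 67 windows in all, and 9 of them (13.4%), from 8 genes, held CACGTG, compared with 6.02% of 32851 windows of that length. The 8 genes were Ak4, Ampd3, Atic, Impdh2, Nme1, Nt5c2, Paics and Slc29a1. The palindromic NRF1 motif and the palindromic glucocorticoid response element, searched like the E-box on both strands, were in 0 of the 67 windows, and in 0.782% and 0.00913% of all windows. Such matches only describe the letters in these windows.

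**Figure D2:**
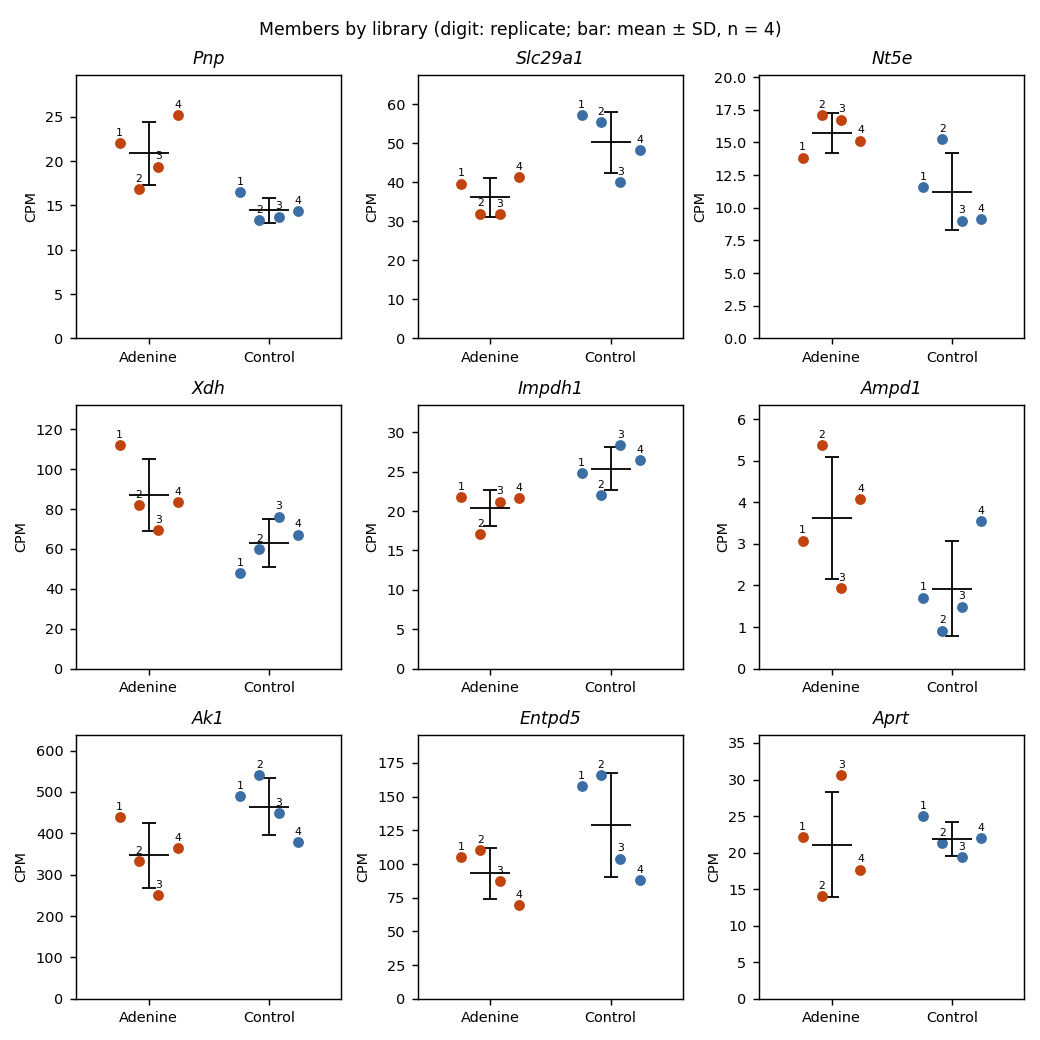
CPM in every library for the 8 members with the lowest p and for Aprt (orange, adenine; blue, control; digits, replicate numbers; bars, mean ± SD, n = 4 each; axes start at 0). The diets do not overlap for Pnp and Impdh1, whereas for Aprt the adenine libraries run from 14.0 to 30.6 CPM and enclose all controls.

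Salvage genes carried no detectable diet difference. Aprt, which turns dietary adenine into AMP, was at 22.1, 14.0, 30.6 and 17.7 CPM in Adenine 1 to 4, against 25.0, 21.3, 19.4 and 21.9 CPM in Control 1 to 4. Adenine 2 and Adenine 4 were lower and Adenine 3 higher than every control, so the diets overlapped. The log2 fold change of Aprt was -0.05 (SE 0.21, 95% interval -0.50 to 0.40, adjusted p = 0.898, edgeR), and it was -0.29 without Adenine 3. For Hprt it was 0.12 (SE 0.21), or -0.15 without Adenine 3, whose 82.4 CPM were the highest of all libraries. Adk, adenosine kinase, which returns adenosine to AMP, averaged 91.0 ± 12.2 CPM in adenine and 94.0 ± 24.4 CPM in control hearts (SD, n = 4 each), a difference smaller than either spread, with a log2 fold change of -0.05 (SE 0.19), or -0.10 without Adenine 3. Dck and Dguok, the cytosolic and mitochondrial deoxynucleoside kinases, had log2 fold changes of -0.12 (SE 0.25, or -0.33 without Adenine 3) and -0.30 (SE 0.16). Aprt (ENSMUSG00000006589) lies on chromosome 8, from 122574635 to 122576909 on GRCm38.

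Among the 7 genes of breakdown and interconversion, 3 (Pnp, Xdh and Ampd1) had an unadjusted p under 0.05 in the higher direction, as 10.9% of all genes tested did, and none passed. The step was singled out after its values were seen, so the count is only a description. Pnp, purine nucleoside phosphorylase, which splits inosine and guanosine into base and sugar phosphate, was at 22.03, 16.9, 19.4 and 25.2 CPM in Adenine 1 to 4, against 16.5, 13.3, 13.7 and 14.3 CPM in Control 1 to 4. All 4 adenine libraries lay above all 4 controls, although Adenine 2 and Control 1 were close. Its log2 fold change was 0.53 (SE 0.15, adjusted p = 0.216, edgeR), 0.44 to 0.62 with any 1 library left out. Pnp (ENSMUSG00000115338) lies on chromosome 14, from 50931082 to 50965237. A near-identical gene, Pnp2, lies inside that span on the same strand. Pnp also shares 18.0% of its exon bases with Gm49342 on the same strand, so its reads could have been split. Pnp2 itself had a log2 fold change of 0.35 (SE 0.20).

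Xdh, xanthine dehydrogenase, makes uric acid and is also the enzyme that oxidises adenine. It was at 112, 82.2, 69.5 and 83.7 CPM in Adenine 1 to 4, against 47.9, 59.8, 76.2 and 67.2 CPM in Control 1 to 4. Of the adenine libraries, 3 lay above all controls and Adenine 3 lay below Control 3. The log2 fold change was 0.47 (SE 0.18, 95% interval 0.07 to 0.87, adjusted p = 0.264, edgeR) and 0.55 without Adenine 3 (adjusted p = 0.0882). Without Adenine 1, the highest library, it was 0.30. Xdh is known from the endothelium of heart capillaries. The 8 vascular endothelial markers summed to 1131 to 1724 CPM under the adenine diet and 1207 to 1821.5 CPM under the control diet, 7 of the 8 had negative log2 fold changes, none passed and none was at 0. Adenine 1 had the highest endothelial sum of the adenine libraries, and the part of these cells in the Xdh values was not tested. Xdh (ENSMUSG00000024066) spans 73883895 to 73950196 on chromosome 17.

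The AMP deaminases, which turn AMP into IMP, differed in level, and none passed the test of diet. Per kilobase, Ampd3, the form known from heart and red cells, made up 53.7 ± 5.55% of the 3 deaminase transcripts in adenine and 55.7 ± 2.73% in control hearts (SD, n = 4 each), and Ampd2 29.3 ± 5.81% and 35.4 ± 3.15%. Ampd1, the skeletal muscle form, made up 17.0 ± 7.15% and 8.94 ± 5.22%. Ampd1 was at 3.08, 5.38, 1.94 and 4.07 CPM in Adenine 1 to 4, against 1.71, 0.915, 1.49 and 3.55 CPM in Control 1 to 4, with overlap between the diets. Its log2 fold change of 0.91 (SE 0.42, adjusted p = 0.285, edgeR) was the largest of the members, lay between 0.65 and 1.38 with any 1 library left out, and rested on 27 to 109 reads a library. Counts of 1472 receptor genes of smell and pheromone sensing (olfactory and vomeronasal), whose known sites are sensory neurons, moved with it: they summed to 730, 2009, 653 and 1226 CPM in Adenine 1 to 4 and to 583, 423, 827 and 851 CPM in Control 1 to 4, so that the highest and the lowest library of each diet were the same for both. The part of such low-level reads in the Ampd1 values was not tested. Ampd2 and Ampd3 had log2 fold changes of -0.28 (SE 0.18) and -0.06 (SE 0.15).

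**Figure D3:**
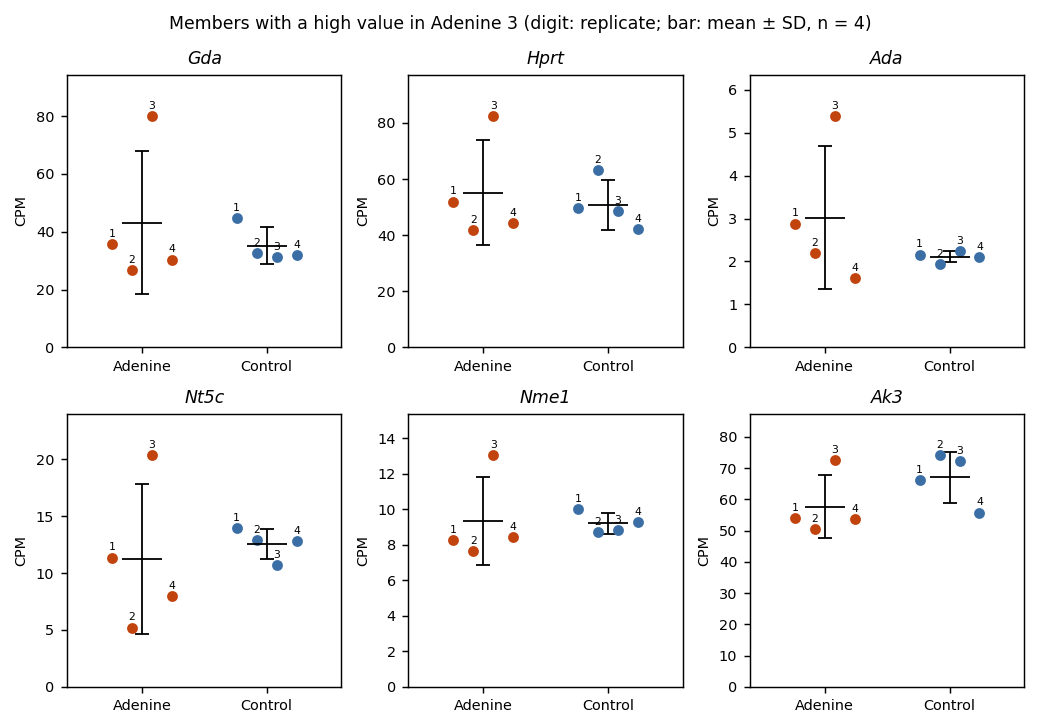
CPM in every library for 6 members with a high value in Adenine 3 (orange, adenine; blue, control; digits, replicate numbers; bars, mean ± SD, n = 4 each; axes start at 0). Adenine 3 reaches 80.0 CPM for Gda and 82.4 CPM for Hprt, above all other libraries, while for Ak3 it lies within the control range.

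For Ada, Gda and Nt5c the estimate depended on Adenine 3. Ada, adenosine deaminase, was at 2.88, 2.20, 5.38 and 1.61 CPM in Adenine 1 to 4, and the controls held 1.93 to 2.24 CPM. Its log2 fold change was 0.53 (SE 0.35), and 0.07 without Adenine 3. Gda, guanine deaminase, reached 80.0 CPM in Adenine 3, while Adenine 1, 2 and 4 held 26.8 to 35.7 CPM and the controls 31.4 to 44.8 CPM, and its log2 fold change of 0.30 (SE 0.29) was -0.19 without Adenine 3. Nt5c, a cytosolic nucleotidase for deoxynucleotides, was at 11.4, 5.20, 20.3 and 8.0003 CPM in Adenine 1 to 4, the controls at 10.7 to 13.9 CPM, with -0.15 (SE 0.31), or -0.62 without Adenine 3 (adjusted p = 0.100). These were the members for which leaving out that library moved the value most, and Adenine 3 has the high macrophage marker sum. The part of those cells was not tested.

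Synthesis of PRPP and IMP held 10 members, none past the threshold or at an unadjusted p under 0.05. Of these, 8 had negative log2 fold changes, from -0.33 (SE 0.16) for Atic, which closes the purine ring to IMP, to -0.14 for Prps2, a PRPP synthetase, which was at -0.36 without Adenine 3. The positive values were 0.22 (SE 0.17) for Pfas, which adds an amide nitrogen midway, and 0.04 for Prpsap1, a partner of PRPP synthetase. Per library, the median log2 ratio of the 10 genes to their control means was -0.20, -0.25, -0.07 and -0.33 in Adenine 1 to 4, against 0.06, 0.33, -0.16 and -0.42 in Control 1 to 4. The adenine libraries therefore all lay within the range of the controls, which was set by Control 2, the library with the high atrial marker sum, at the high end and Control 4 at the low end. Paics, which carries out consecutive middle steps, was at 90.6, 80.2, 130 and 86.2 CPM in Adenine 1 to 4, against 122, 150.0, 115 and 81.0 CPM in Control 1 to 4, and Ppat, the amidotransferase that commits PRPP to the pathway, averaged 13.0 ± 1.53 and 14.6 ± 3.30 CPM in adenine and control hearts. Their log2 fold changes were -0.28 (SE 0.21, or -0.46 without Adenine 3) and -0.16 (SE 0.18). The genes overlap at their starts on chromosome 5, on opposite strands, and 272 exon bases belong to both, 6.2% of those of Ppat and 8.7% of those of Paics. For the strand setting of the counting, nothing is stated in the labels.

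The remaining synthesis genes were close to these. Gart, a protein with 3 activities of the pathway, had -0.31 (SE 0.19) and Adsl, which releases fumarate in 2 steps of purine synthesis, -0.21 (SE 0.15). Prps1 and Prpsap2 had -0.25 (SE 0.18) and -0.26 (SE 0.20). Prps1 gave 70.6 ± 3.41% of the 2 PRPP synthetase transcripts per kilobase in adenine hearts and 71.7 ± 0.668% in control hearts (SD, n = 4 each).

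From IMP to GMP, Impdh1 was the member whose adenine libraries all lay below the controls. IMP dehydrogenase is the entry enzyme of guanine nucleotide synthesis, and Impdh1 was at 21.75, 17.1, 21.2 and 21.6 CPM in Adenine 1 to 4, against 24.8, 21.99, 28.4 and 26.4 CPM in Control 1 to 4. Adenine 1 and Control 2 differed by little. The log2 fold change was -0.31 (SE 0.14, 95% interval -0.62 to -0.01, adjusted p = 0.280, edgeR), and -0.34 without Adenine 3. Impdh2, the other form, had -0.05 (SE 0.15, 95% interval -0.37 to 0.28, or -0.0043 without Adenine 3) and gave 63.8 ± 2.48% of the IMP dehydrogenase transcripts per kilobase in adenine hearts and 59.2 ± 6.37% in control hearts. Gmps, GMP synthetase, had -0.07 (SE 0.16), or -0.18 without Adenine 3. Impdh1 (ENSMUSG00000003500) spans 29200434 to 29216364 on chromosome 6.

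**Figure D4:**
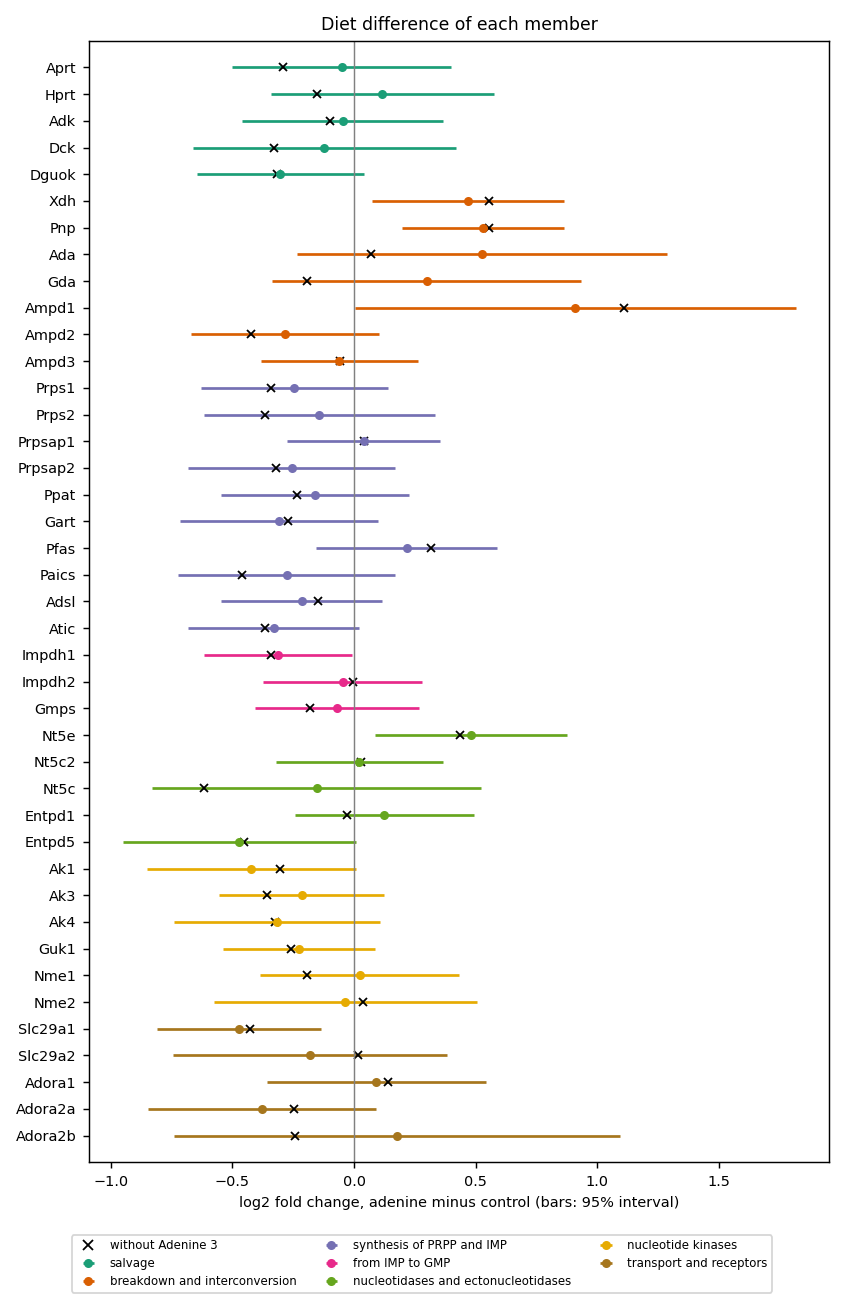
Log2 fold change of each member, adenine minus control (points, edgeR estimate; bars, 95% interval, not adjusted for the number of genes; crosses, estimate without Adenine 3; colours, step). The intervals of Pnp, Nt5e, Xdh and Ampd1 lie above 0 and those of Slc29a1 and Impdh1 below it, and the crosses of Gda and Ada lie far to the left of their points.

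Outside the cell, ectonucleotidases turn released ATP into adenosine. Nt5e, which encodes CD73 and makes adenosine from AMP, was at 13.8, 17.1, 16.7 and 15.1 CPM in Adenine 1 to 4, against 11.6, 15.2, 9.02 and 9.13 CPM in Control 1 to 4. All adenine libraries lay above 3 of the controls, and Control 2 lay among them. The log2 fold change was 0.48 (SE 0.18, 95% interval 0.08 to 0.88, adjusted p = 0.263, edgeR), 0.39 to 0.66 with any 1 library left out, the highest value without Control 2. Entpd1, which encodes CD39 and removes phosphates from ATP and ADP, had 0.12 (SE 0.17), or -0.03 without Adenine 3. Entpd5, a nucleoside diphosphatase of the endoplasmic reticulum, was at 105, 110.4, 87.1 and 69.3 CPM in Adenine 1 to 4, against 158, 166, 104 and 88.2 CPM in Control 1 to 4. Control 1 and Control 2 were high and the other libraries overlapped, with a log2 fold change of -0.47 (SE 0.22, adjusted p = 0.290, edgeR). Nt5c2, a cytosolic nucleotidase for IMP and GMP, had 0.02 (SE 0.16). Nt5e (ENSMUSG00000032420) spans 88327197 to 88372092 on chromosome 9.

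Among the nucleotide kinases, Ak1 was at 439, 333, 250.4 and 364 CPM in Adenine 1 to 4, against 489, 540.4, 449 and 378 CPM in Control 1 to 4. Of the adenine libraries, 3 lay below all controls and Adenine 1 lay above Control 4. The log2 fold change was -0.42 (SE 0.20, adjusted p = 0.290, edgeR), and -0.30 without Adenine 3, the lowest library and also the one with the lowest cardiomyocyte marker sum, whose part was not tested. Ak3 and Ak4, kinases of the mitochondrial matrix, had -0.22 (SE 0.16, or -0.36 without Adenine 3) and -0.32 (SE 0.20), and Guk1 had -0.23 (SE 0.14). Nme1 and Nme2 had 0.02 (SE 0.19) and -0.04 (SE 0.25), and both signs turned without Adenine 3, to -0.19 for Nme1 and 0.04 for Nme2.

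Transport of adenosine was represented by the equilibrative nucleoside transporters. Slc29a1, which encodes ENT1, the carrier that clears adenosine from the extracellular space and is the target of dipyridamole, was at 39.7, 32.0, 31.9 and 41.3 CPM in Adenine 1 to 4, against 57.3, 55.5, 40.1 and 48.3 CPM in Control 1 to 4. Only Adenine 4 reached above the lowest control, Control 3. The log2 fold change was -0.47 (SE 0.16, 95% interval -0.81 to -0.14, adjusted p = 0.236, edgeR), -0.56 to -0.41 with any 1 library left out. Slc29a2, which encodes ENT2, had -0.18 (SE 0.26), or 0.02 without Adenine 3, in which it was at 4.81 CPM. Slc29a1 gave 75.8 ± 6.71% of the transcripts of both carriers per kilobase in adenine and 79.3 ± 1.62% in control hearts. Slc29a1 (ENSMUSG00000023942) spans 45585200 to 45599606 on chromosome 17, and 6.9% of its exon bases overlap Gm17080 on the opposite strand.

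The adenosine receptors were low in both diets. Per kilobase, Adora2a, the receptor of coronary vessels that raises cyclic AMP, gave 60.5 ± 10.9% of the 3 receptor transcripts in adenine and 68.4 ± 8.02% in control hearts, Adora1, the receptor that slows the heart, 25.3 ± 5.43% and 21.1 ± 6.82%, and Adora2b 14.1 ± 8.44% and 10.5 ± 4.21% (SD, n = 4 each). Their log2 fold changes were -0.38 (SE 0.22) for Adora2a, 0.09 (SE 0.21) for Adora1 and 0.18 (SE 0.42) for Adora2b, and no interval of the 3 excluded 0. Without Adenine 3 they were -0.25 for Adora2a, 0.14 for Adora1 and -0.24 for Adora2b. Adora2b rested on 18 to 78 reads a library. Of the exon bases of Adora1, 20.1% overlap Mybph on the opposite strand.

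**Figure D5:**
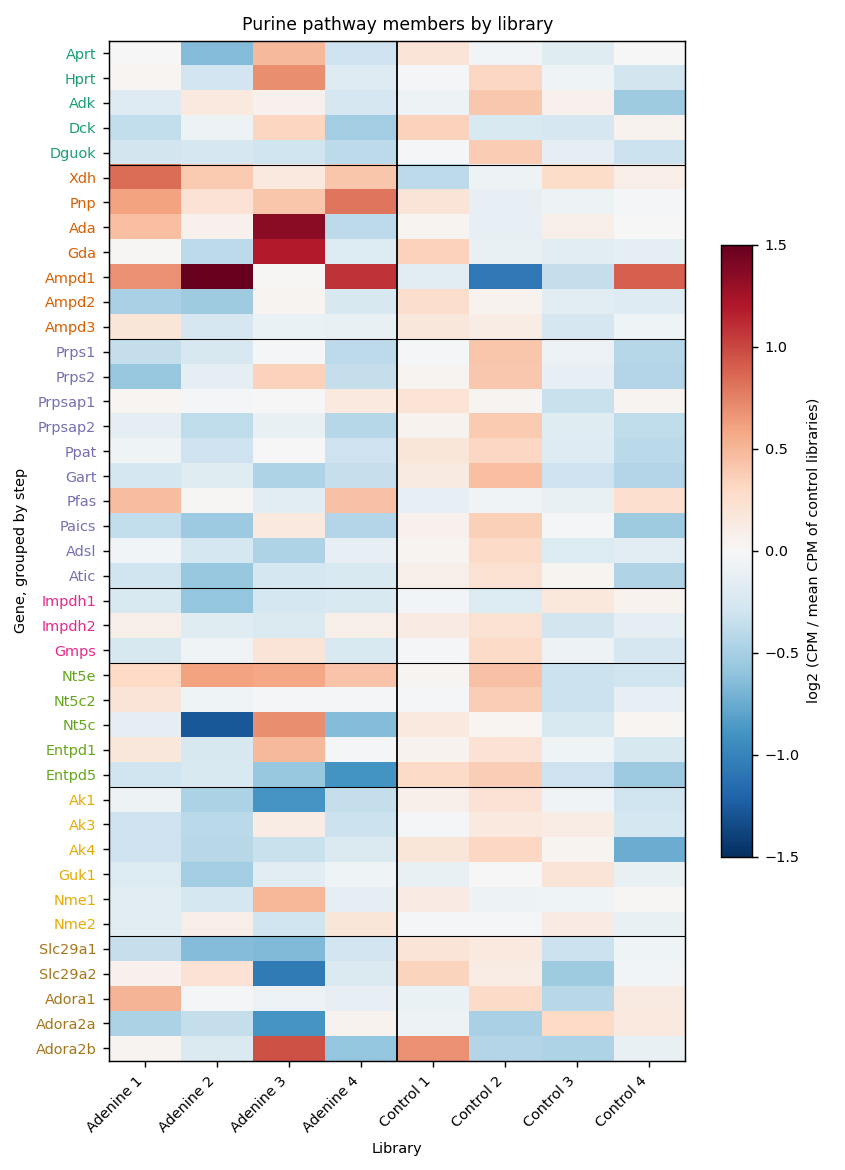
Log2 ratio of CPM to the mean of the control libraries for each of the 41 members (rows, grouped by step) in the 4 adenine libraries (left) and 4 control libraries (right of the line). The colour scale is limited to 1.5 in both directions. Gda, Ada and Hprt stand out in Adenine 3, Ampd1 in Adenine 2 and Adenine 4, and most synthesis genes are above their control mean in Control 2 and below it in Control 4.

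A wider list of the pathway, with 53 genes found and 51 tested, also held no gene that passed in edgeR. In this list, 11 had an unadjusted p under 0.05 (7 higher and 4 lower), 21.6% beside 17.5% of all genes tested, and the libraries did not overlap for 7 (3 higher, 4 lower), 13.7% beside 7.29%. Of the higher genes with such a p, Ak8, Allc and Ak5 rested on 4 to 28, 3 to 48 and 22 to 65 reads a library. Of the 7 higher, all but Enpp1 (Ak5, Ak7, Ak8, Allc, Slc28a3 and Entpd7) were highest in Adenine 2. The olfactory and vomeronasal receptor sum was highest there too, and its part was not tested. Enpp1 had a log2 fold change of 0.84, or 0.12 without Adenine 3. The lowest p belonged to Slc28a2, a sodium-driven concentrative carrier of adenosine and other purine nucleosides. It was at 25.8, 25.1, 24.5 and 30.1 CPM in Adenine 1 to 4, against 40.2, 32.1, 53.3 and 49.5 CPM in Control 1 to 4. All adenine libraries lay below all controls, with a log2 fold change of -0.73 (SE 0.17, adjusted p = 0.142, edgeR). Entpd2, an ectonucleotidase that makes ADP from ATP, was at 7.996, 3.91, 3.79 and 7.81 CPM in Adenine 1 to 4, against 13.4, 11.1, 9.87 and 9.86 CPM in Control 1 to 4, also without overlap, with -0.91 (SE 0.26, adjusted p = 0.214, edgeR). Entpd7, an intracellular relative, had 0.75 (SE 0.25, adjusted p = 0.235, edgeR). DESeq2, which called 1.86% of the genes to which it gave an adjusted p, called 2 of the list lower, Slc28a2 (adjusted p = 0.0168) and Entpd2 (adjusted p = 0.0499), on the same libraries. In simulated counts, 36 of 198 DESeq2 calls were false, so these adjusted p may be too low. The log2 fold changes of Slc28a2 and Slc29a1 stayed negative with every library left out in turn, but neither passed in edgeR. Both were named for a low p on these same libraries, so the kept sign is only a description. Other nucleoside carriers had positive values: Slc28a3 0.94 (SE 0.40), Slc28a1 0.88 (SE 0.45), Slc29a4 0.85 (SE 0.47) and Slc29a3 0.26 (SE 0.24, or -0.07 without Adenine 3). Slc28a3, Slc28a1 and Slc29a4 lay under 5 CPM in every library. Slc28a3 and Slc28a1 had their highest and lowest library of each diet where the olfactory and vomeronasal receptor sum did. Slc29a4 shared its lowest library of each diet and its highest control, but was highest in Adenine 4. The part of such reads was not tested.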

How the data were processed

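RNA was measured in 8 heart libraries. Per the labels' protocols, a NEBNext Ultra kit was used. STAR 2.7.6a, FastQC 0.11.9 and the build GRCm38.p6 appear in the submitters' processing notes. The counting program, annotation and strand setting remain not given in the sources used here. Per gene, the authors deposited raw read counts, unscaled, and groups and replicate numbers came from the titles.

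The test of the counts used edgeR 4.0.16 under R 4.3.3 (default low-count filter by group, TMM factors, quasi-likelihood F-test of diet). P-values were adjusted by the Benjamini-Hochberg method over 20093 genes, and 95% intervals used the SE derived from F. CPM are TMM-scaled, and levels between genes were divided by the exon length of GENCODE M21. 1 CPM equals 16.4 reads in the shallowest library. Within each diet, no library was a repeat of another within sampling noise (chi-square per gene of at least 18.7). The fit was tested on simulated counts, where edgeR recovered 57% of genes changed by a log2 of 1 and 92% of those changed by 2. False calls were 7 of 156 in edgeR and 36 of 198 in DESeq2. Smaller changes, such as those of all members here, were not simulated and could be missed. Alternatives included DESeq2 1.42.0 and limma 3.58.1.

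Members and lists were chosen with earlier results of these data known. By rule, library values are given for the 8 members with the lowest p, Aprt, Xdh and members without overlap, and the 3 wider-pathway genes with the lowest p are named; Ada, Gda, Nt5c, Hprt, Nme1, Ak3, Paics, Pnp2 and the printed promoters were chosen after values were seen.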

Additional observations from a re-analysis of the deposited data

Results flagged for a closer look

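In 82 sets of 4 libraries (41 members in each diet), a library whose gap to its nearest neighbour exceeded Dixon's critical share of the whole range was looked for, which chance gives in about 1 of 20 sets. It was met 7 times. In Adenine 3, Gda was at 79.98 CPM (26.8 to 35.7 CPM in Adenine 1, 2 and 4), Ak3 at 72.6 CPM against 50.6 to 54.0 CPM, and Nme1 at 13.0 CPM against 7.64 to 8.41 CPM. In Adenine 1, Nt5c2 was at 38.3 CPM against 32.0 to 32.7 CPM and Adora1 at 11.2 CPM against 7.22 to 7.70 CPM. In Adenine 2, Impdh1 was at 17.1 CPM against 21.2 to 21.75 CPM. In Control 1, Gda was at 44.8 CPM against 31.4 to 32.6 CPM in the other controls.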

How the results depend on the processing

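The count of members that passed was 0 under all 16 alternatives. Over all genes, 8 passed in edgeR, 19 with upper-quartile factors, 328 in DESeq2, 5 in limma-voom and 1 to 67 with 1 library left out (67 without Adenine 3, 27 without Adenine 4, 3 without Adenine 1, 5 without Control 2, and 1 without Control 1, Control 3 or Control 4); the cause was not tested. Of the wider list, 0 passed in edgeR and 2 in DESeq2. With the replicate block 32 genes passed. Deviations of same-numbered libraries did not go together (r = 0.086, -0.50, -0.16 and 0.30 for numbers 1 to 4). These few values give no sign that the numbers pair libraries, but cannot exclude a pairing.

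26 of 44 member and named pathway genes kept their direction under all 16 alternatives. The sign turned with upper-quartile factors, which moved the median of all genes from 0.05 to 0.20, for Aprt (0.071), Adk (0.12), Dck (0.0085), Ampd3 (0.082), Prps2 (0.0093), Impdh2 (0.11), Gmps (0.080) and Nme2 (0.11). It turned with a filter of 1 CPM in 4 libraries for Aprt (0.018), Adk (0.032), Ampd3 (0.0094), Impdh2 (0.026), Gmps (0.0051) and Nme2 (0.034), and with the replicate block for Nme1 (-0.010). Leaving out 1 library gave -0.29 to 0.10 for Aprt, -0.15 to 0.25 for Hprt, -0.19 to 0.11 for Adk, -0.33 to 0.0082 for Dck, -0.19 to 0.47 for Gda, -0.36 to 0.026 for Prps2, -0.048 to 0.11 for Prpsap1, -0.12 to 0.034 for Impdh2, -0.18 to 0.040 for Gmps, -0.057 to 0.17 for Nt5c2, -0.62 to 0.075 for Nt5c, -0.030 to 0.23 for Entpd1, -0.19 to 0.11 for Nme1, -0.11 to 0.036 for Nme2, -0.33 to 0.016 for Slc29a2, -0.092 to 0.20 for Adora1 and -0.24 to 0.50 for Adora2b. Depth limits Ada, Ampd1, Dck, Nme2 and Adora2b, the members under 5 CPM in most libraries.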
